A study of Homo sapiens and Mus musculus with 74 samples.

Results

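The comparison described here asks whether loss of the ribosomal protein gene Rpl41 changed ribosome footprints in the same genes of mouse kidney and brain, or in different ones. It rests on 12 of the 74 samples of the series, the Ribo-seq libraries of kidney and brain from wild-type (WT) and Rpl41 KO mice, with 3 libraries in each of the 4 groups, chosen by their labels and not by any measured value. Of 22484 coding genes, each represented by the GENCODE M21 transcript that encodes the longest protein, 12373 passed the filter on low counts in both tissues and were tested. The mice were 10-week-old males of C57BL/6J background, and the KO animals were Rpl41-/- throughout the body after CRISPR-Cas9 removal of the whole coding sequence. No agent was given. The labels do not tie a kidney library to the brain library of the same animal, so p-values measure the spread between the libraries of a group. In whole tissue, fewer cells of a type and less RNA per cell cannot be told apart.

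Ribo-seq sequences the short pieces of mRNA that a translating ribosome shields from nuclease, so that the reads on a gene follow both how much of its mRNA is present and how many ribosomes sit on it. Kidney and brain differ greatly in the mRNAs they hold. The kidney is built mainly from tubule cells rich in solute transporters and mitochondria, and the brain from neurons and glia with long cytoskeletal, synaptic and channel proteins. RPL41 is the smallest ribosomal protein, a basic peptide at the interface of the ribosomal subunits.

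The targeted gene was checked first. The coding sequence of Rpl41, which the KO allele lacks, is given here as the annotation gives it (GRCm38, chr10:128548387-128548960, minus strand, spliced from 3 coding exons, 78 bases for 25 residues). Capitals mark the start and stop codons.
Rpl41: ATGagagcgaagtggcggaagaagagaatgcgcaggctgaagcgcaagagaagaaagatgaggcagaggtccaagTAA
The transcript used for the fit carries a longer reading of 46 residues. It held 85, 41 and 50 footprint reads in WT kidney and 0, 1 and 2 in KO kidney, with 70, 37 and 76 in WT brain and 2, 4 and 0 in KO brain. Every KO library therefore lay far below every WT library, as its label says. RNA-seq reads on the same transcript ran from 3695 to 7502 in WT kidney against 3 to 8 in KO kidney, and from 8981 to 12199 in WT brain against 6 to 12 in KO brain.

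Total reads over all transcripts ran from 13573525 to 25882664 in WT kidney, from 11036643 to 42452425 in KO kidney, from 9498663 to 21952455 in WT brain and from 17806472 to 35881929 in KO brain. The tissues matched their labels. Summed over 7 proximal tubule markers, kidney libraries held 17398 to 24661 CPM (reads scaled to a common library size) and brain libraries 62.5 to 113, whereas 7 neuron markers summed to 5329 to 6498 CPM in brain and to 2.37 to 4.92 in kidney. Markers of other tissues were also present. The 22 pancreas acinar markers summed to 795 to 2695 CPM in WT kidney and to 509 to 719 in KO kidney, and the 6 pituitary markers to 4.00 to 3091 in WT brain and to 4.01 to 74.8 in KO brain. The brain KO replicate 1 library stood apart from the other KO brain libraries: without it, genes called in brain went from 7 to 487. Where its removal changed the call of a gene described here in brain, as it did for 30 of 102 named genes, the value without it is given as well.

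A tissue-by-genotype term was fitted for every gene, the log2 fold change (KO over WT) in kidney minus that in brain, with edgeR's quasi-likelihood test and Benjamini-Hochberg adjustment at 0.05. It was called for 32 genes, 0.259% of those tested: 11 with a higher change in kidney (0.0889%) and 21 with a lower one (0.17%). An unadjusted p under 0.05 was reached by 1173 genes. Under the same fit, kidney alone gave 786 genes that rose and 547 that fell (10.8% of genes tested), brain alone 2 (0.0162%) and 5 (0.0404%), together 0.0566%, and the average of both tissues 1090 and 886 (16%). The averaged term takes kidney and brain libraries as independent. If libraries of the same animal varied together, its p-values would be too small, and so would those behind the shared genes below. This was not tested. Genes called in kidney mostly took the same sign in brain, 1137 of 1333 or 85.3%, beside 68.0% over all genes tested. Across genes the kidney and brain changes had a Pearson r of 0.44 over 12373 genes, which are not independent replicates and carry no p here. The 1305 genes called in kidney and not by the tissue-by-genotype term are thus not shown to be particular to kidney. DESeq2 called 71 genes and limma voom 83 by the tissue-by-genotype term, each including all 32.

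**Figure D1:**
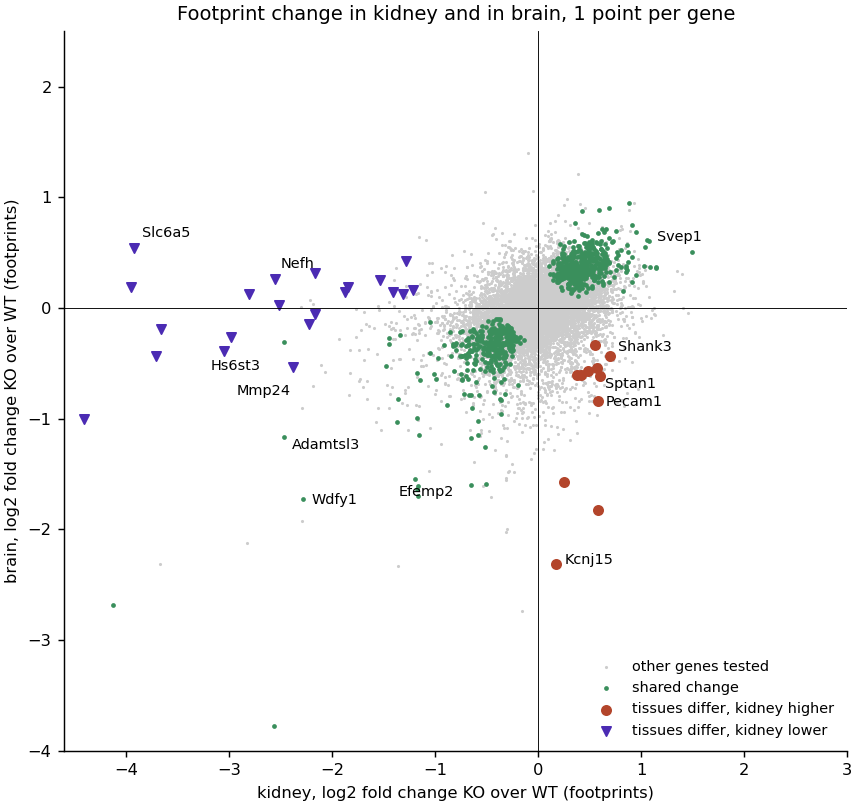
Log2 fold change of footprints (KO over WT) in kidney (x axis) against brain (y axis), 1 point per gene tested, with shared genes in green, genes of a higher change in kidney as red circles and genes of a lower change as violet triangles. The 11 red genes lie right of the kidney zero line and below the brain one, the 21 violet genes lie left of the kidney zero line, and 4 genes outside the axes (Rpl41, Lypd5, Birc7, Vax1) are not drawn.

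Among the genes with a higher change in kidney were Sptan1 and Sptbn1. They encode an alpha and a beta chain of spectrin, a long rod protein that lines the inside of the plasma membrane. Sptan1 (chr2:29965560-30031451, GRCm38) held 402, 347 and 398 CPM in WT kidney and 510, 628 and 559 in KO kidney, and 855, 644 and 761 in WT brain against 558, 551 and 445 in KO brain. All KO libraries lay above the WT libraries in kidney and below them in brain. Its log2 fold change was 0.57 ± 0.13 (SE) in kidney, which passed (adjusted p = 0.019), and -0.54 ± 0.13 in brain, which did not (adjusted p = 0.097) but passed without brain KO replicate 1, at -0.59 (adjusted p = 0.041). The difference between the tissues was 1.11 ± 0.19 (adjusted p = 0.018).

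Sptbn1 had 511, 457 and 485 CPM in WT kidney against 633, 737 and 656 in KO, and 532, 366 and 456 in WT brain against 329, 311 and 273 in KO. It showed the order of Sptan1, KO above WT in kidney and below it in brain with no overlap. Its brain change of -0.57 passed only without brain KO replicate 1, at -0.63 (adjusted p = 0.032). The difference between the tissues was 1.05 ± 0.19 (adjusted p = 0.025).

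Shank3 (chr15:89499623-89560261), a scaffold of excitatory synapses, followed the same pattern. It had 37.3, 32.5 and 32.0 CPM in WT kidney and 52.1, 61.5 and 52.0 in KO kidney, with 97.9, 77.4 and 66.8 in WT brain and 60.3, 58.9 and 60.2 in KO brain. The difference was 1.13 ± 0.19 (adjusted p = 0.015). These 3 genes, with Slc6a5 and Nefh described below, are among 12 called genes whose tissues moved in opposite directions with an unadjusted p under 0.05 and no overlap in each. Over all genes tested, 0.792% had genotypes apart in both tissues in opposite directions.

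Endothelial genes formed another group. Pecam1 and Cdh5 encode adhesion molecules of the junctions between endothelial cells, and Cxcl12 a chemokine that stromal and endothelial cells secrete. Pecam1 had 63.6, 60.7 and 50.7 CPM in WT kidney against 86.8, 93.3 and 82.2 in KO, where all KO libraries were higher, and 21.3, 14.8 and 24.4 in WT brain against 16.8, 8.23 and 11.9 in KO, where the groups overlapped. Cdh5 had 85.4, 72.6 and 61.8 against 88.3, 103 and 102 in kidney, and 42.6, 33.9 and 42.2 against 29.4, 24.9 and 25.5 in brain, apart in both tissues. The difference between tissues was 1.41 ± 0.28 for Pecam1 (adjusted p = 0.041), 1.02 ± 0.19 for Cdh5 (adjusted p = 0.029) and 0.99 ± 0.19 for Cxcl12 (adjusted p = 0.035). Their brain falls passed only without brain KO replicate 1, at -1.10, -0.67 and -0.77 in that order (adjusted p = 0.016, 0.029 and 0.015).

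Of the 6 endothelial markers, Pecam1 and Cdh5 were called by the tissue-by-genotype term, and the median difference over the list was 0.98, from 0.47 in kidney and -0.74 in brain, beside -0.01 over all genes. Of the 6 kidney changes 4 were positive and all 6 brain changes were negative. The brain term called 0 of 6, and 4 of 6 as fallen without brain KO replicate 1, beside 1.44% of all genes. The other members were not called by the tissue-by-genotype term. Kdr and Flt1, receptors for vascular endothelial growth factor, had differences of 0.94 (adjusted p = 0.28) and 1.26 (adjusted p = 0.22), Tek, the angiopoietin receptor, 0.79 (adjusted p = 0.45), and Cldn5, a claudin of the blood-brain barrier, 0.22 (adjusted p = 0.92). Cldn5 went against the list in kidney, where its change was -0.64 (adjusted p = 0.17) and all KO libraries, at 10.8, 10.3 and 7.89 CPM, lay below the WT libraries at 17.7, 14.0 and 11.1, and it fell in the average (-0.75, adjusted p = 0.019). Summed over the list, the markers spanned 348 to 551 CPM in WT kidney, 483 to 618 in KO kidney, 143 to 253 in WT brain and 111 to 170 in KO brain, so the genotypes overlapped in both tissues. Footprints of the 6 blood markers were lower in KO brain with no overlap: they summed to 2553 to 7102 CPM in WT brain and 1330 to 1717 in KO brain, and to 3031 to 3709 and 1766 to 3312 in kidney, and the part of vessels and blood in the endothelial values was not tested. In RNA-seq the difference between tissues was -0.99 for Pecam1 and 1.11 for Flt1, of opposite sign (unadjusted p = 0.34 and 0.0063). Pecam1 had 202, 187 and 372 RNA reads in WT kidney and 165, 10 and 38 in KO kidney, and 179, 135 and 273 against 278, 50 and 38 in brain, so the KO libraries of replicates 2 and 3 were low in both tissues.

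Slc12a7, a potassium-chloride cotransporter, was mainly a kidney gene, with 207, 209 and 199 CPM in WT kidney against 282, 300 and 321 in KO and 12.1 to 18.6 CPM in brain. Its kidney rise of 0.56 ± 0.10 passed (adjusted p = 0.0056), and the difference was 0.89 ± 0.17 (adjusted p = 0.036). The remaining genes on the higher side were low in brain and were named after their values were seen. Kcnj15, an inward rectifier potassium channel, had 32, 5 and 14 reads in WT brain and 3, 6 and 5 in KO, with 0 to 5 RNA reads there. Myo15b, an unconventional myosin, had 25, 12 and 16 against 8, 13 and 4, and Scarf1, a scavenger receptor, 13, 9 and 27 against 6, 7 and 6. For these 3 genes the difference came mostly from brain libraries with few reads. The brain falls passed only without brain KO replicate 1, at -2.27, -1.74 and -1.98 (adjusted p = 0.022, 0.022 and 0.017). In brain these 3 genes passed the filter on low counts through the WT libraries alone, the genotype in which they were high, so their calls are a description.

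**Figure D2:**
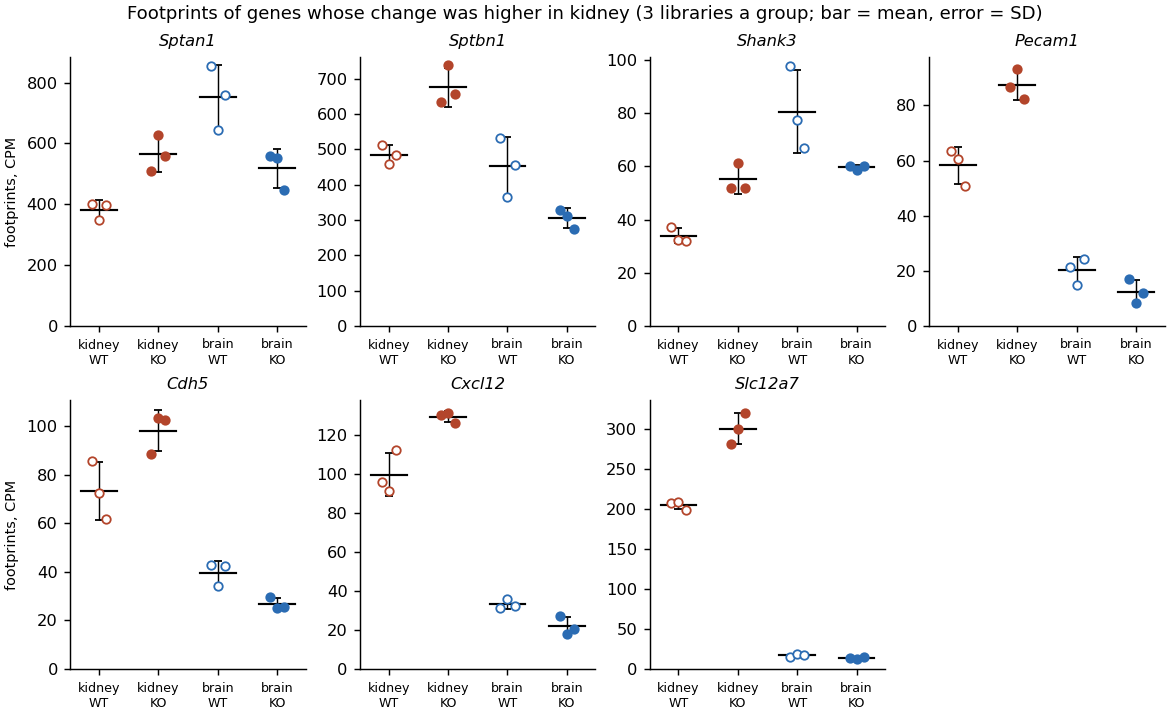
Footprints in CPM (linear y axis from 0) of 7 named genes with a higher change in kidney, 1 point per library, open for WT and filled for KO, with the mean as a bar and the SD as an error bar (n = 3 a group). In every panel the 3 KO kidney points lie above the 3 WT kidney points, and in brain the KO points lie below the WT points except for an overlap in Pecam1.

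The 11 calls on the higher side rested on few libraries. None was called without KO kidney replicate 2 or 3, or without KO brain replicate 2 or 3, while all 11 were called without brain KO replicate 1. Across all 27 alternatives run for each, Sptan1 was called in 19 with a difference between 1.01 and 1.24, Shank3 in 22 (0.96 to 1.28), Sptbn1 in 15, and Cdh5 in 13. Pecam1, Cxcl12 and Slc12a7 were called in 8, 8 and 10. With library sizes alone in place of TMM scaling, 3 of the 11 remained (Kcnj15, Scarf1, Shank3), and the split of all calls was 3 higher and 21 lower.

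The genes with a lower change in kidney were of another kind. Many are known from neurons, and in kidney they carried footprints in WT libraries that were fewer or missing in KO libraries. Nefh (chr11:4938754-4948064), the heavy neurofilament subunit, had 41, 32 and 24 footprint reads in WT kidney (5.86, 8.45 and 6.99 CPM) and 1, 14 and 12 in KO kidney (0.386, 1.29 and 1.23 CPM). In brain it had 295, 271 and 300 CPM in WT and 326, 362 and 352 in KO. All KO kidney libraries were below and all KO brain libraries above WT. The kidney change was -2.56 ± 0.25 (adjusted p = 8.6e-05), the brain change 0.26 ± 0.11 (adjusted p = 0.25) and the difference -2.82 ± 0.28 (adjusted p = 0.00029). The difference of Nefh was called in all 25 alternatives that tested it. Nefh reached the minimum of the filter on low counts in 3 WT kidney libraries and 0 KO ones, so it was tested through the genotype in which it was high. Alternatives that asked for at least 10 counts, or at least 10 RNA reads, in every library did not test it.

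Slc6a5 (chr7:49910146-49963856), the glycine transporter of inhibitory nerve terminals, had 74, 18 and 10 reads in WT kidney and 1, 3 and 6 in KO kidney. In brain it had 69.2, 62.1 and 84.9 CPM in WT against 102, 108 and 107 in KO. Kidney KO libraries lay below and brain KO libraries above their WT libraries, and the difference, -4.46 ± 0.53, was the largest in size among the 32 called (adjusted p = 0.0011). Hs6st3, a heparan sulfate sulfotransferase (chr14:119138341-119869815), had 39, 34 and 28 reads in WT kidney and 1, 11 and 9 in KO, while in brain the genotypes overlapped at 50.6, 45.9 and 54.6 CPM against 38.4, 47.4 and 40.6. Its difference was -2.72 ± 0.33 (adjusted p = 0.0011).

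Hecw1, a ubiquitin ligase of neurons, had 70, 57 and 51 reads in WT kidney against 16, 39 and 26 in KO, which after scaling was 10.0, 15.0 and 14.9 CPM against 6.17, 3.59 and 2.66. D430041D05Rik, a gene without an assigned name, had 99, 75 and 47 reads against 16, 59 and 23, and Gpr158, an orphan receptor of neurons, 104, 65 and 34 against 22, 59 and 39. Grin2b, a subunit of the NMDA glutamate receptor, had 57, 26 and 15 against 5, 35 and 28, or 8.14, 6.86 and 4.37 CPM against 1.93, 3.22 and 2.87. In each of these 4 genes the KO kidney libraries were below the WT ones by CPM and the brain libraries overlapped. Their differences were -2.04 ± 0.30, -2.02 ± 0.31, -1.56 ± 0.27 and -1.38 ± 0.26 in that order (adjusted p = 0.0054, 0.0078, 0.018 and 0.033). Hecw1 and D430041D05Rik were called in 24 of 26 alternatives, Gpr158 in 15 of 26 and Grin2b in 11 of 24. Of all 21 calls on the lower side, 7 were kept without KO kidney replicate 3 and 12 without KO kidney replicate 2.

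Mmp24 (chr2:155775342-155818366), a membrane-bound metalloproteinase, differed from the rest in that it fell in kidney while its kidney mRNA was plainly present. Footprint reads were 56, 38 and 40 in WT kidney and 2, 21 and 20 in KO, or 8.00, 10.0 and 11.7 CPM against 0.771, 1.93 and 2.05. RNA reads were 665, 841 and 441 in WT kidney and 804, 962 and 870 in KO. In brain its footprints went from 49.3, 57.4 and 56.7 CPM to 39.5, 38.3 and 34.5, again with no overlap. The kidney change was -2.38 ± 0.23, the brain change -0.54 ± 0.13 (adjusted p = 0.1, and 0.049 at -0.57 without brain KO replicate 1) and the difference -1.84 ± 0.27 (adjusted p = 0.0054), so both tissues were lower and kidney more so.

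Beyond the rule, the 21 genes mostly had few or no RNA-seq reads in kidney on the transcript used. For 20 of them no kidney RNA-seq library held more than 10 reads, and for 7 every kidney library held 0, where 4.09% of all genes tested had at most 10. Hs6st3, Hecw1, Grin2b and Calb2 were among those at 0. Calb2, calretinin, a calcium-binding protein of interneurons, was named after its values were seen: it had 15, 15 and 12 footprint reads in WT kidney, 0, 1 and 3 in KO kidney and no RNA read in any kidney library, while brain held 185, 201 and 214 CPM in WT and 224, 227 and 232 in KO. Summed over the 7 neuron markers, WT kidney held 2.45 to 4.92 CPM and KO kidney 2.37 to 2.59, and 0 of the 7 passed the filter in kidney. Few RNA reads went with lower footprints in both tissues. Among 506 genes with at most 10 reads in each kidney RNA-seq library, 70.0% had a negative kidney change, beside 51.4% of other genes. The 506 include the 20 called genes. Of the 506, 114 reached the minimum of the low-count filter in all WT kidney libraries but not in all KO ones, and 18 the reverse. Over all 12373 genes tested these were 422 and 141. The share of negative changes thus rests partly on genes tested through the genotype in which they were high, and is a description. The like group in brain held 249 genes, 83.5% with a negative brain change, beside 51.9% of other genes. Medians of these 249 genes were -0.41 in brain and -0.03 in kidney, and 145 genes were in both groups.

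The filter on low counts bears on these calls. A gene was tested when 3 libraries of a tissue reached a minimum, which was 1.79 CPM in kidney. Of the 21 genes, 18 reached it in all 3 WT kidney libraries and not in all 3 KO libraries, 15 of them in no KO library, beside 422 and 92 of the 12373 genes tested. They were thus tested through the genotype in which they were high, and their count is a description. Hecw1, D430041D05Rik and Gpr158 reached the minimum in all 6 kidney libraries. Where at least 10 counts were asked of every library, 2 of the 32 genes were called, Hecw1 and D430041D05Rik. The 506 genes tested with at most 10 reads in each kidney RNA-seq library include mt-Co2 and mt-Atp8 of the mitochondrial genome. These had 9325 and 4749 footprint reads on average in WT kidney, so few RNA reads do not show that an mRNA was absent. The 506 genes also hold near copies of abundant genes. Eno1b, a near copy of Eno1, had 4958 footprint reads on average in WT kidney with 0 to 2 RNA reads in any kidney library, and the footprint alignment allowed reads with several matching places. Which reads these are was not tested. Where testing was limited to 11148 genes with at least 10 RNA reads in every kidney and brain library, an alternative added after the data were seen, 6 genes were called, among them Mmp24 as lower, and Scarf1, Shank3, Sptan1 and Sptbn1 as higher.

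**Figure D3:**
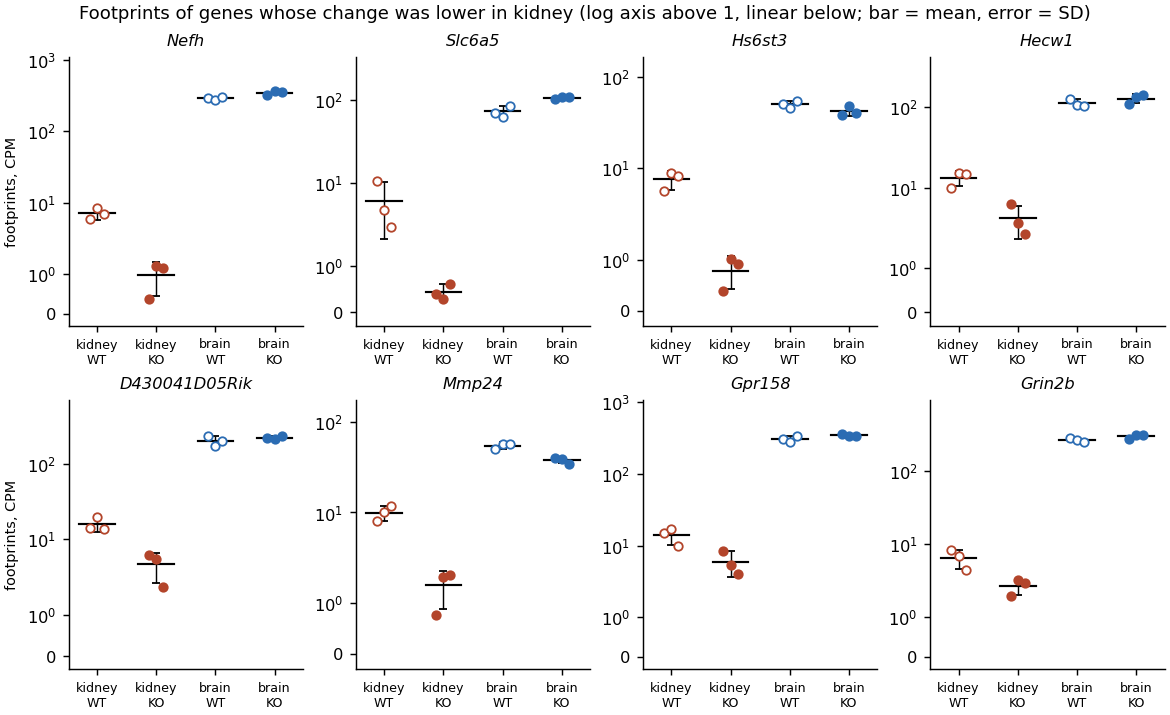
Footprints in CPM of the 8 named genes with a lower change in kidney (y axis logarithmic above 1 CPM and linear below), 1 point per library, open for WT and filled for KO, with the mean as a bar and the SD as an error bar (n = 3 a group). KO kidney points lie below WT kidney points in all 8 panels and below all brain points of the same gene, while in brain the genotypes are apart for Slc6a5, Nefh and Mmp24 and overlap in the other 5.

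Shared changes were sought next. A gene counted as shared where the averaged term was called, the tissue-by-genotype term was not, both tissues had the same sign and all KO libraries lay on 1 side of the WT libraries in each. This held for 820 genes, 6.63% of those tested, 472 up (3.81%) and 348 down (2.81%), while genotypes lay apart in both tissues in the same direction for 7.69% of all genes. Without brain KO replicate 1 the count was 1470. All 7 genes called by the brain term were shared: Rpl41, Lypd5, Aqp8, Efemp2 and Bicc1 fell, and Ifrd1 and Inpp5f rose. Rpl41, Lypd5 and Aqp8 passed the filter on low counts through their WT libraries alone, so their calls are a description. With library sizes alone the split was 234 up and 663 down in place of 472 and 348.

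The largest shared rises were in genes of modest level. Svep1 (chr4:58042442-58206859), a very large secreted adhesion protein of 3567 residues, had 146, 108 and 76.6 CPM in WT kidney against 175, 272 and 252 in KO, and 19.4, 16.3 and 21.7 in WT brain against 27.6, 32.2 and 28.9 in KO. Its averaged rise was 0.84 ± 0.15 (adjusted p = 0.004), called in all 26 alternatives that gave one. Frem1, a large basement membrane protein, rose by 0.82 ± 0.14 (adjusted p = 0.0034), and Vcan, the proteoglycan versican, by 0.79 ± 0.12 (adjusted p = 0.0018), from 5.72, 4.22 and 3.50 CPM to 7.33, 11.3 and 9.02 in kidney and from 52.7, 51.6 and 58.9 to 74.6, 84.2 and 81.1 in brain. For these 3 matrix genes all KO libraries lay above all WT libraries in both tissues, at very different levels, and in brain alone Vcan passed only without brain KO replicate 1 (0.60, adjusted p = 0.026).

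Baiap3, a protein of vesicle release, rose by 0.84 ± 0.13 (adjusted p = 0.0023), and its brain libraries went from 66.0, 70.7 and 77.4 to 91.0, 121 and 116 CPM, a rise that passed in brain alone without brain KO replicate 1 (0.73, adjusted p = 0.013). Bbox1, the last enzyme of carnitine synthesis, rose by 1.00 ± 0.25 (adjusted p = 0.014) from 9, 5 and 18 reads in WT kidney to 17, 84 and 53 in KO, where depth differed, or 1.29, 1.32 and 5.24 CPM to 6.56, 7.73 and 5.43. WT kidney replicate 3 was thus close to the KO libraries. The other WT kidney libraries lay under the filter minimum of 1.79 CPM and all KO kidney libraries above it. Bbox1 was thus tested in kidney through KO, the genotype in which it was high, and its call is a description. Xlr3c, an X-linked gene of a family with near-identical copies whose reads cannot be split with certainty, rose by 0.91 ± 0.22 (adjusted p = 0.013).

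Some genes rose by less but more evenly. Ifrd1, a co-regulator of transcription induced by stress and differentiation, had 12.0, 8.97 and 11.1 CPM in WT kidney against 15.4, 17.5 and 18.6, and 24.7, 27.2 and 26.6 in WT brain against 41.2, 51.4 and 52.5, which passed in each tissue alone (adjusted p = 0.015 and 0.011).

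Inpp5f, a phosphoinositide phosphatase named after its values were seen, was among the most even. It held 71.2, 72.0 and 79.5 CPM in WT kidney against 116, 99.1 and 105 in KO, and 69.4, 63.1 and 69.9 in WT brain against 102, 99.5 and 102. Its kidney change of 0.52 and brain change of 0.58 each passed (adjusted p = 0.007 and 0.039).

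Shared falls were led by Rpl41 itself, whose averaged change of -5.86 depends on the small count added by the fit. Adamtsl3 (chr7:82335694-82614450), a secreted protein related to the ADAMTS proteases, had 10.4, 15.0 and 19.5 CPM in WT kidney against 3.09, 2.39 and 2.66 in KO, and 20.2, 27.2 and 24.2 in WT brain against 11.8, 9.98 and 9.83. It fell by 1.82 ± 0.16 on average (adjusted p = 2.5e-05). The kidney change was larger, -2.47 against -1.17, yet the difference was called in 1 of 25 alternatives and not in the reported fit (adjusted p = 0.17). Mmp25, a leukocyte metalloproteinase, fell by 0.91 ± 0.22 (adjusted p = 0.014) with 0 to 8 RNA reads in kidney. The brain falls of both passed without brain KO replicate 1, at -1.24 and -1.50 (adjusted p = 0.015 and 0.022).

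Efemp2 (chr19:5473954-5482517), fibulin-4 of elastic fibres, and Bicc1 (chr10:70922832-71159700), an RNA-binding protein of kidney tubules, fell more in brain than in kidney, in values that were not called as different. Efemp2 had 32.6, 38.5 and 39.3 CPM in WT kidney against 20.8, 24.4 and 23.3 in KO, and 33.3, 52.6 and 31.5 in WT brain against 11.8, 10.9 and 15.1. Bicc1 had 140, 127 and 102 against 86.0, 78.7 and 95.2 in kidney, and 16.7, 31.1 and 15.0 against 7.29, 6.36 and 5.64 in brain. All KO libraries were below all WT libraries for both genes in both tissues. The averaged fall of Efemp2 was called in 25 of 26 alternatives and ran from -1.33 to -0.27. That of Bicc1 was called in all 26 and ran from -1.25 to -0.85. The differences were 0.94 ± 0.26 (adjusted p = 0.23) and 1.08 ± 0.31 (adjusted p = 0.26), and the RNA change of Efemp2 was -0.07 in kidney and -0.01 in brain.

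Wdfy1, an adaptor of endosomal receptor signalling, fell by 2.00 ± 0.37 on average (adjusted p = 0.0045), but replicate 1 of WT was low in both tissues. It had 8.14, 44.9 and 42.5 CPM in WT kidney against 6.94, 5.61 and 6.56 in KO, and 9.91, 32.0 and 32.7 in WT brain against 7.04, 7.11 and 7.74. Lypd5 and Aqp8, named after their values were seen because brain called them, had few reads. Lypd5, of the Ly6 family, had 37, 19 and 17 reads in WT kidney against 1, 0 and 0, and 33, 27 and 34 in WT brain against 0 in each KO library, at least 15.1-fold lower with a floor of 3 reads per library. At most 2 RNA reads fell on Lypd5 in any library. Aqp8, a water channel, had 36, 26 and 14 reads in WT kidney against 5, 6 and 9, and 24, 22 and 33 in WT brain against 4, 3 and 1. Both genes were tested through WT, the genotype in which they were high.

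Gene lists were described by counts, beside 6.35% of all genes that rose and 4.42% that fell in kidney, and 8.81% that rose and 7.16% that fell in the average. Lists of giant or very short proteins have a closer baseline by length. In kidney 27.8% of genes with 1646 to 35213 residues rose, and 13.9% of those with 28 to 130 residues fell. Of genes with 764 to 1644 residues 14.9% rose in kidney, and of those with 131 to 292 residues 7.68% fell. Shares by length were not counted for the average or for brain, so those counts have only the share of all genes beside them. The lists were chosen with earlier results of these data known. Brain, where 7 genes were called in all, called at most 1 member of any list. Without brain KO replicate 1, which gave 2.46% of genes risen and 1.44% fallen in brain, it called 8 of 23 giant ubiquitin ligases and signalling proteins, 7 of 26 nuclear pore proteins and 7 of 35 initiation factors as risen.

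Of 27 tested giant cytoskeletal and motor proteins 16 rose in kidney. In brain 0 of 27 were called, and without brain KO replicate 1 it was 1 risen and 3 fallen. The tissue-by-genotype term called 3, Sptan1 and Sptbn1 among them, all lost without KO replicate 2 or 3 of either tissue. The median change of the list was 0.55 in kidney and 0.16 in brain. By library, the list stood 0.39, 0.64 and 0.50 above the WT mean in KO kidney, clear of WT kidney (-0.12 to 0.12), while KO brain, at -0.02, 0.13 and 0.06, lay inside the WT brain range (-0.14 to 0.21). For collagens and basement membrane proteins the medians were 0.53 and 0.01, with 14 of 30 risen in kidney and 0 called as different between tissues. Lama2, a laminin chain of muscle and vessel walls, had 122, 88.7 and 64.4 CPM in WT kidney against 160, 230 and 221 in KO, and 60.1, 53.5 and 78.4 against 81.9, 86.1 and 82.8 in brain. Its difference was 0.78 (adjusted p = 0.38), that of Lamb1 0.46 (adjusted p = 0.44) and that of the fibrillin Fbn1 0.73 (adjusted p = 0.49), and all 3 rose in the averaged term.

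Giant ubiquitin ligases and signalling proteins had positive changes in all 23 members in both tissues, with medians of 0.59 in kidney and 0.32 in brain, and 19 of 23 rose in the average. The list stood 0.36 to 0.60 above the WT mean in KO kidney, clear of WT. In KO brain it stood 0.05, 0.46 and 0.43 above it, where WT brain ran from -0.18 to 0.22, so that brain KO replicate 1 lay among the WT libraries. Prkdc, the catalytic subunit of DNA-dependent protein kinase with 4128 residues, had 44.9, 55.2 and 55.1 CPM in WT kidney against 72.5, 92.0 and 101 in KO, and 65.2, 52.1 and 51.4 in WT brain against 73.4, 85.8 and 84.7. Its brain change of 0.53 passed only without brain KO replicate 1 (0.59, adjusted p = 0.038). Rnf213, a ubiquitin ligase, rose by 0.57 ± 0.12 and Lrba, a vesicle trafficking protein, by 0.55 ± 0.09 (adjusted p = 0.0086 and 0.0024). In brain Lrba passed without brain KO replicate 1 (0.53, adjusted p = 0.029). Ahnak, a scaffold of 5656 residues from the cytoskeletal list, rose by 0.67 in the average (adjusted p = 0.0084), with 0.98 in kidney and 0.36 in brain.

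Nuclear pore proteins had like medians in the tissues, 0.30 and 0.27, with 10 of 26 risen in the average and 0 called as different. Their median length was 872.5 residues. Ranbp2, a filament protein of the pore, rose by 0.60 ± 0.11, Nup133, of the scaffold ring, by 0.55 ± 0.10, and Nup214, of the cytoplasmic side, by 0.52 ± 0.08 (adjusted p = 0.0036, 0.0039 and 0.0022). Nup98 rose by 0.48 (adjusted p = 0.011), from 114, 102 and 104 CPM to 134, 171 and 177 in kidney and from 86.7, 77.4 and 74.3 to 72.4, 111 and 122 in brain, where brain KO replicate 1 was below all WT libraries. Without that library the brain rises of Nup133, Ranbp2, Nup98 and Nup214 passed, at 0.78, 0.60, 0.55 and 0.47 (adjusted p = 0.012, 0.026, 0.03 and 0.039).

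Many very short proteins fell in the average. Of 22 tested members of the very short membrane and secretory pathway list, 12 fell and 0 rose, at medians of -0.37 in kidney and -0.22 in brain. The list stood 0.33 to 0.36 below the WT mean in KO kidney, apart from WT kidney, whereas in brain the genotypes overlapped: KO brain was at -0.12, -0.35 and -0.31 and WT brain ran from -0.14 to 0.19. Tomm5 and Tomm7, small subunits of the import pore of the outer mitochondrial membrane, fell by 0.57 ± 0.10 and 0.44 ± 0.10, and Sec61b, of the endoplasmic reticulum channel, by 0.44 ± 0.10 (adjusted p = 0.0038, 0.0085 and 0.0086). Among nuclear-encoded subunits of the respiratory chain and ATP synthase, 15 of 73 fell and 2 rose, at medians of -0.21 and -0.20. Their median length was 143 residues. Ndufb9 with 179 residues and Ndufa2 with 99 fell by 0.40 each, while Ndufs1 with 727 rose by 0.40, all 3 at complex I. In brain Ndufs1 passed without brain KO replicate 1 (0.44, adjusted p = 0.041).

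Other named short proteins were Selenow, a selenoprotein of 88 residues, which fell by 0.54 ± 0.09, Bax, a pore former of apoptosis, which fell by 0.50 ± 0.08, and Eif1, which guards start codon choice and fell by 0.42 ± 0.07 (adjusted p = 0.0029, 0.0026 and 0.0029). Eif1 had 126, 136 and 143 CPM in WT kidney against 109, 90.6 and 106, and 134, 143 and 125 in WT brain against 102, 94.7 and 100. In brain alone Selenow, Bax and Eif1 passed without brain KO replicate 1, at -0.55, -0.53 and -0.45 (adjusted p = 0.021, 0.039 and 0.042). Rps27l fell by 0.37 in the average (adjusted p = 0.034), a call kept in 14 of 26 alternatives. Cstb, Cisd1, Vamp8 and Cycs, all near 100 residues, had averaged changes of -0.15, -0.19, -0.32 and -0.16, none of which passed, and their differences between tissues were -0.34, -0.18, -0.07 and -0.02.

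**Figure D4:**
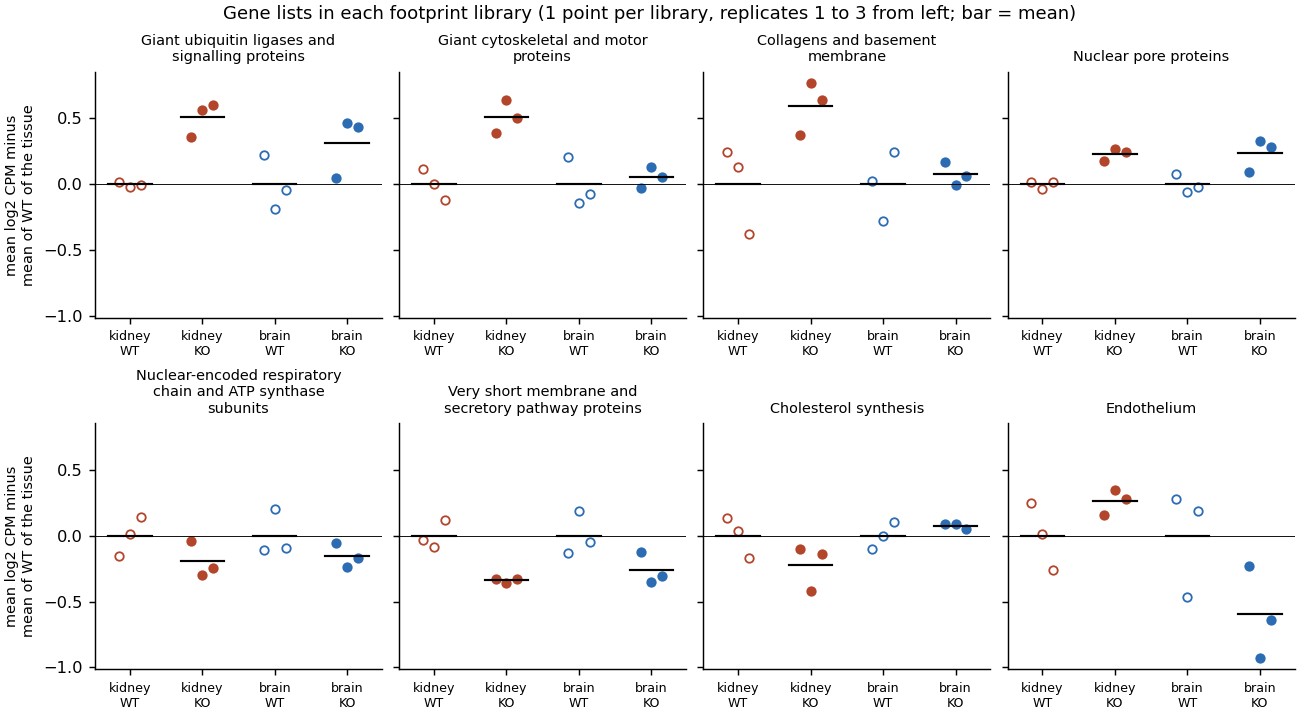
Mean log2 CPM of the tested members of 8 gene lists minus the mean of the WT libraries of the tissue (y axis), 1 point per footprint library, replicates 1 to 3 from left, open for WT and filled for KO, with the group mean as a bar. Giant cytoskeletal proteins and collagens are high in all KO kidney libraries and near WT in brain, nuclear pore proteins are above WT in both tissues, very short proteins are low in KO kidney and overlap WT in brain at KO replicate 1, and endothelial markers go up in kidney and down in brain with overlap.

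Lists of the translation machinery held 0 genes called as different between tissues, and their averaged calls varied. Ribosomal proteins of the large subunit had medians of -0.08 in kidney and -0.14 in brain with 1 of 46 called in the average, Rplp2, a stalk protein (-0.31, adjusted p = 0.033, called in 15 of 26 alternatives), and those of the small subunit -0.06 and -0.18 with 0 of 33. Among 35 initiation factors 8 rose and 1 fell in the average, a larger risen share than the 8.81% of all genes. Eif3a, the largest subunit of eIF3, rose by 0.53 ± 0.08 and Eif5b, which joins the subunits, by 0.52 ± 0.11 (adjusted p = 0.0014 and 0.0083). Of 18 ribosome collision and quality control genes 6 rose, again a larger share than of all genes. Their median length was 775.5 residues, beside 474 over all genes tested. In kidney 3 of the 18 rose, beside 14.9% of genes with 764 to 1644 residues. Among the 6 were Nemf and Ltn1, which act on stalled chains, by 0.46 ± 0.09 and 0.42 ± 0.08, and the translation repressor Gigyf2 by 0.42 ± 0.10. Without brain KO replicate 1 the brain rises of Eif3a, Eif5b, Nemf and Ltn1 passed, at 0.56, 0.61, 0.65 and 0.44 (adjusted p = 0.021, 0.049, 0.016 and 0.034). Eef2k, the kinase that inhibits elongation factor 2, rose by 0.58 ± 0.15 (adjusted p = 0.016).

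Lists of chaperones, stress and turnover also held 0 genes called as different between tissues. In the integrated stress response list 1 of 19 rose in the average, Aldh18a1 of proline synthesis (0.58, adjusted p = 0.0099), which in brain passed without brain KO replicate 1 (0.54, adjusted p = 0.044). In the p53 list 4 of 20 fell, including Bax, Rps27l and Ei24 (-0.37, adjusted p = 0.016). Of 27 cytosolic chaperones 6 rose, such as Bag3 and Hspa4l by 0.43 and 0.37, and 1 fell, Hspb8, by 0.45, a call kept in 12 of 26 alternatives. The shares that fell in the p53 list and rose among cytosolic chaperones were above the 7.16% and 8.81% of all genes. Psmd8 was the only one of 32 proteasome subunits called (-0.23, adjusted p = 0.03, in 14 of 26 alternatives), and Hist1h4h, of a family with near-identical copies, the only one of 27 histones (-0.32, adjusted p = 0.04, in 13 of 26). Endoplasmic reticulum chaperones, mitochondrially encoded proteins and glucocorticoid-responsive genes had 0 calls in the averaged and tissue-by-genotype terms by edgeR.

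Metabolic and signalling lists held 0 genes called as different between tissues. Of 20 interferon-responsive genes 8 rose in kidney and 7 in the average, at medians of 0.38 in kidney and 0.17 in brain, among them Ifit1 (0.72, adjusted p = 0.023) and Gbp2 (0.64, adjusted p = 0.02). Cholesterol synthesis had a median of -0.20 in kidney and 0.05 in brain, with 4 of 24 fallen in kidney. Insig1, which retains the sterol sensor, and the enzymes Fdft1 and Msmo1 were at -0.82, -0.60 and -0.61 in kidney and -0.05, -0.11 and -0.04 in brain, and their differences did not pass (adjusted p = 0.38, 0.45 and 0.4). Fatty acid oxidation and peroxisome genes had medians of 0.15 and 0.16, where 8 of 27 rose in the average, such as Hadha by 0.48 ± 0.08 and Hsd17b4 by 0.37 ± 0.09, and Hadha passed in brain without brain KO replicate 1 (0.59, adjusted p = 0.016). The 8 include Bbox1, which was tested in kidney through KO. Selenoproteins had 4 of 20 fallen, Selenof among them (-0.32, adjusted p = 0.021), and 1 risen, Txnrd3 (0.40, adjusted p = 0.014).

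Genes tied to 1 of the tissues were often below the filter in the other. Of 32 proximal tubule transporters 18 could be tested, at medians of 0.27 in kidney and -0.18 in brain, and 2 rose in the average, the bicarbonate cotransporter Slc4a4 (0.45, adjusted p = 0.0044) and the amino acid transporter Slc6a20b (0.28, adjusted p = 0.013). Of 17 kidney injury genes 13 were tested and 1 rose, the adhesion molecule Vcam1 (0.57, adjusted p = 0.0099). Of 38 synaptic proteins 24 were tested, and Grin2b and Shank3 were the 2 called as different, in opposite directions. Hcn2, a pacemaker channel, and Tspan2 of myelin followed Grin2b in value, at -0.93 and -1.45 in kidney and -0.08 and -0.16 in brain, with differences that did not pass (adjusted p = 0.32 and 0.13). Mal, also of myelin, was at -0.38 and -0.13.

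Immediate early and clock genes varied between libraries. Egr3, an activity-induced transcription factor, was at -1.77 in kidney and -0.26 in brain, and Klf4, of the same list, at -0.53 and -1.61, and both fell in the average (adjusted p = 0.006 and 0.021) with differences that did not pass (adjusted p = 0.22 and 0.6). Npas2, a clock activator, had 16.4, 15.3 and 2.04 CPM in WT kidney against 5.40, 1.84 and 2.05 in KO, so that WT replicate 3 lay among the KO libraries. Nr1d1, a clock repressor, rose by 0.52 ± 0.09 in the average (adjusted p = 0.0029).

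Protein length ordered the change in both tissues, more steeply in kidney. Among the shortest 5% of genes (28 to 130 residues, 633 genes) the median change was -0.27 in kidney and -0.21 in brain. Among the longest 5% (1646 to 35213 residues, 619 genes) it was 0.32 in kidney and 0.13 in brain, the median difference between tissues was 0.17, and 71.2% of these genes had a positive difference, beside 39.2% of the shortest. In the shortest genes KO brain libraries ran from -0.30 to -0.097 against the WT mean and WT brain from -0.101 to 0.16, so they overlapped, while KO kidney (-0.29 to -0.22) was clear of WT kidney (-0.07 to 0.12). By library, the longest genes stood 0.19, 0.39 and 0.37 above the WT mean in KO kidney and 0.01, 0.24 and 0.22 above it in KO brain, where WT brain ran from -0.17 to 0.20. KO kidney was thus clear of WT kidney (-0.13 to 0.07), KO brain overlapped WT brain, and brain KO replicate 1 was the lowest KO library. The 11 genes of a higher change in kidney had a median of 1083 residues and the 21 of a lower change 760, beside 474 over all genes tested, and their median GC contents were 52.2% and 52.2% beside 50.5%.

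RNA-seq of the same groups was fitted in the same way as another readout. Of 13145 genes tested, 0 were called by the tissue-by-genotype term with edgeR, 1532 had an unadjusted p under 0.05, DESeq2 called 93 and limma voom 1988. The kidney, brain and averaged RNA terms called 40, 2 and 4 genes (0.304%, 0.0152% and 0.0304%). Without KO kidney RNA-seq replicate 1, edgeR called 763. In RNA-seq the kidney and brain changes had the same sign, at -0.51 and -0.54 for Sptan1 and -0.19 and -0.52 for Sptbn1, with differences of 0.03 and 0.33 (unadjusted p = 0.9 and 0.17). For Shank3 the RNA difference was -0.12 (unadjusted p = 0.59). Since edgeR called 0 genes by this term in RNA-seq, the lack of an RNA call is not particular to these genes. Whether footprints per mRNA differed between the tissues was not tested.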

How the data were processed

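Kidney and brain footprints were compared between WT and Rpl41 KO mice. The deposited values are counts per transcript. Per the study's methods, the authors trimmed adaptors with cutadapt, filtered on quality with the FASTX Toolkit, removed rRNA reads by alignment to human rRNA, aligned with STAR to GRCm38.p6 and mm10 allowing multimapping reads, and counted with featureCounts of Subread. Versions were not given in the sources used here. Of 142604 transcripts, 141374 matched GENCODE M21, and 1 transcript per coding gene was kept. The 28 columns of a second table, with human rows and mouse sample names, were not used.

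Genes passing filterByExpr in each tissue were scaled by TMM within tissue and fitted with edgeR 4.0.16 (R 4.3.3), 1 mean per tissue and genotype, quasi-likelihood F-test, Benjamini-Hochberg adjustment, threshold 0.05, with limma 3.58.1 and DESeq2 1.42.0 as alternatives. The fit was tested on simulated data. CPM are of reads on tested genes, after TMM, except for summed markers, which are of reads on all coding genes. SE is the absolute log2 fold change over the root of F.

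Named genes were 8 genes of the study, the 8 largest called differences on either side and the 6 largest opposed ones (mean count of at least 30 in a genotype of each tissue), the 6 largest shared rises and falls, and up to 3 called members of each pathway list. Members and lists were chosen with earlier results of these data known. Some genes are not reported here.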

Additional observations from a re-analysis of the deposited data

Results flagged for a closer look

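The fold change in kidney minus that in brain was called for 32 genes by the test of the difference itself (edgeR, quasi-likelihood, Benjamini-Hochberg). On the lower side, the differences of genes given above were -4.46 for Slc6a5, -4.14 for Calb2, -2.82 for Nefh, -2.72 for Hs6st3, -2.04 for Hecw1, -2.02 for D430041D05Rik, -1.84 for Mmp24, -1.56 for Gpr158 and -1.38 for Grin2b. The other 12 were Gal3st3 (-3.47), Pgr15l (-3.40), Pcsk1n (-3.27), Tmem145 (-2.94), Dlgap3 (-2.66), Kcnk12 (-2.55), Glra3 (-2.49), Brinp1 (-2.11), Ajap1 (-2.09), Irs4 (-1.78), Lrp1b (-1.71) and Pcdhac2 (-1.44), none of which had more than 8 RNA reads in a kidney library. The brain rise of Lrp1b passed only without brain KO replicate 1, at 0.46 (adjusted p = 0.046).

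On the higher side the differences of the genes reported here were 2.49 for Kcnj15, 2.41 for Scarf1, 1.83 for Myo15b, 1.41 for Pecam1, 1.13 for Shank3, 1.11 for Sptan1, 1.05 for Sptbn1, 1.02 for Cdh5, 0.99 for Cxcl12 and 0.89 for Slc12a7.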

How the results depend on the processing

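The count of genes called by the tissue-by-genotype term (32 in the reported fit) was 71 with DESeq2, 83 with limma voom, 2 with at least 10 counts in every library, 17 with noncoding genes added, 5 with counts thinned to the lowest library total, 6 with at least 10 RNA reads in every library and 57 without KO replicate 1 of both tissues, the last pair chosen after seeing the data. Leaving out 1 library gave 7 to 59. The kidney term (1333) gave 2575 with voom, 883 with counts summed over transcripts, 695 with thinned counts and 176 to 1563 without 1 library, the lowest without KO kidney replicate 3 (242 without replicate 2). The brain term (7) gave 19 with TMM over all libraries, 177 with DESeq2, 668 with voom, 46 without the filter, 3 with at least 10 counts, 25 with the highest-count transcript, 26 with noncoding genes, 4 with each tissue alone, 3 with the RNA minimum, 507 without KO replicate 1 of both tissues and 3 to 487 without 1 library. The averaged term (1976) gave 3139 with voom, 1156 with thinned counts and 926 to 2410 without 1 library. Shared genes (820) numbered 507 with thinned counts, 1765 without KO replicate 1 of both tissues and 591 to 1470 without 1 library. In RNA-seq the tissue-by-genotype term gave 93 with DESeq2, 1988 with voom and 0 to 763 without 1 library. Thinning and minimum counts test fewer reads or genes; elsewhere the cause was not tested.

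With a replicate block the counts were 26 for the tissue-by-genotype term, 979 for kidney, 7 for brain, 1554 for the average, 730 for shared genes and 0 in RNA-seq, and with a replicate block by animal 16 and, in RNA-seq, 0. The block by animal was run for the tissue-by-genotype term alone, not for the average or the shared genes. The labels do not say that a number marks an animal: same-numbered kidney and brain footprint libraries correlated at -0.04 to 0.17, and 7 of 12 correlated best with their own number in the other tissue.

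The sign of the difference between tissues changed for genes in which it was near 0 and not called. With library size alone it was -0.018 for Hsd17b4, -0.036 for Ndufs1, -0.012 for Eif5b and -0.036 for Eif1. With voom it was 0.041 for Ndufa2, -0.014 for Eif5b, 0.018 for Tomm7, 0.00090 for Vamp8 and -0.0032 for Sec61b. Summed transcripts gave 0.0032 for Txnrd3, 0.031 for Vamp8 and 0.022 for Cycs, and thinned counts -0.68 for Ifit1, -0.023 for Eif1, 0.18 for Vamp8 and -0.029 for Sec61b. Without KO replicate 1 of both tissues it was 0.024 for Bax, -0.056 for Hsd17b4, -0.025 for Eif3a, -0.033 for Ndufs1, -0.054 for Eif5b, -0.00035 for Eif1, -0.040 for Sec61b and 0.026 for Xlr3c. Leaving out 1 library gave -0.11 to 0.26 for Bag3, -0.10 to 0.072 for Bax, -0.23 to 0.12 for Cycs, -0.041 to 0.21 for Ei24, -0.035 to 0.10 for Eif1, -0.23 to 0.24 for Eif5b, -0.14 to 0.020 for Hadha, -0.16 to 0.089 for Hist1h4h, -0.10 to 0.17 for Hsd17b4, -0.18 to 0.62 for Ifit1, -0.14 to 0.081 for Ndufa2, -0.20 to 0.038 for Ndufb9, -0.039 to 0.083 for Ndufs1, -0.13 to 0.0054 for Psmd8, -0.046 to 0.20 for Selenof, -0.25 to 0.038 for Tomm7, -0.13 to 0.13 for Txnrd3, -0.25 to 0.10 for Vamp8 and -0.56 to 0.12 for Xlr3c.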
